A study of Rattus norvegicus with 24 samples.

Results

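Transcript levels in the kidney of strain 13 rats were compared with those of SS rats after 2 weeks on high salt (HS), on 6 two-colour cDNA arrays of a series of 24. The 6 arrays were taken as those whose titles name RNA of strain 13 on HS in one channel and RNA of SS on HS in the other. They make up 3 replicates, each hybridised on a forward array, with strain 13 in Cy5, and on a reverse array with the dyes exchanged. Of 3502 probe identifiers, 1487 had a value on these 6 arrays, and the 1350 probes with a value in at least 2 of the 3 replicates are described here. The SS rat is the Dahl salt-sensitive rat, and strain 13 is, from what is known of the study, the same rat with chromosome 13 replaced by that of the BN (Brown Norway) strain. The same knowledge gives HS as high salt and LS as low salt. The strains are compared on LS by 6 further arrays of the same layout, used here only beside the HS values, and the remaining 12 arrays compare the diets within each strain. All RNA is labelled as rat kidney, while the series title names the renal medulla. No age, sex, salt content of the diets or pooling of animals is stated in the labels. The labels do not say that replicates came from separate animals, so every p-value reflects no more than the variation among these samples, and that variation may be technical.

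The renal medulla concentrates urine and sets how much of the filtered sodium is finally excreted. In the thick ascending limb and collecting duct, the basolateral sodium pump drives uptake of sodium that enters through apical cotransporters and channels, and water channels carry water back to the blood. SS rats retain salt and develop hypertension and renal injury on a high salt diet, and the substitution of chromosome 13 is known to attenuate the rise in pressure. The straight part of the proximal tubule, rich in enzymes of amino acid, fatty acid and arachidonic acid metabolism, reaches into the outer medulla, so that both segments and interstitial cells can contribute RNA to one sample. Genes are described below by these roles.

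Values are the deposited log ratios, whose base is not stated, so they are given as log ratios and not as fold changes. A value above 0 means more RNA in strain 13 than in SS. This direction is likely rather than certain: the titles and dye labels put strain 13 in channel 1 on all 6 arrays. With the channels in the opposite order, all signs would be turned together. With a fixed order of the dyes on every array, only one orientation would be turned and the averages would change. The difference of forward and reverse arrays would then take their place. Across probes, the diet change of strain 13 minus that of SS correlated with the HS minus LS strain difference at 0.50 on averages. On differences of forward and reverse arrays this correlation was 0.27. Both are descriptions, and the order of the dyes itself was not tested. Each replicate value is the mean of its forward and reverse array, and a mean ± SD is over 3 replicates unless another n is given. The arrays held 1171 to 1402 values each, and with no spot intensities used here their number limits the precision. Forward and reverse arrays of a replicate correlated across probes at 0.23, -0.22 and -0.01 in replicates 1, 2 and 3, whereas arrays of one orientation correlated at 0.54 to 0.74 between replicates. A probe-specific dye component of that size cancels only where both orientations gave a value, as they did in every measured replicate for 1077 of the 1350 probes. The averaged replicates correlated at 0.65 for replicates 1 and 3, 0.38 for 1 and 2 and 0.37 for 2 and 3 (across genes, which are not independent replicates). Their spread across probes was an SD of 0.34, 0.26 and 0.22. The text in the titles that may mark a batch is shared by replicates 1 and 2 and differs in replicate 3, which shares it with replicate 3 on LS. A further part, ahead of it in the title, carries a different prefix on the reverse HS array of replicate 3.

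On HS, 81 of 1350 probes (6.00%) differed between strain 13 and SS at an adjusted p below 0.05 in limma, 49 of them higher in strain 13 (3.63%) and 32 lower (2.37%). All 81 had the same sign in every replicate with a value. Of the 73 with values on all 6 arrays, 53 had the same sign on each array, against 121 of all 1057 such probes (11.4%). The 53 are among the 121, and probes that pass on the mean of these same arrays tend to share a sign. Neither count is therefore support for the calls. Means of the passing probes ran from -1.51 to 0.92, and the smallest in size was 0.22. They include 69 genes with a single symbol, 41 higher and 28 lower. Before adjustment, 312 probes (23.1%) had a p below 0.05. The count depends on the design of the test. It was 0 when the 3 HS pairs were fitted alone, without the spread pooled from the 9 other RNA pairs (304 before adjustment, with 0.0965 as the lowest adjusted p), and 0 without replicate 1 (172 unadjusted), 12 without replicate 2 and 19 without replicate 3. The fit treats the 12 RNA pairs as independent, and with the replicate number as a block 44 probes passed. Deviations of same-numbered pairs of the HS strain and SS diet comparisons, which both use SS RNA on HS, correlated across probes at -0.63, -0.56 and -0.29, so some extracts may be shared. With every array scaled to equal spread, 13 probes passed, 10 higher and 3 lower, so the share of higher calls was 76.9% rather than 60.5%. On LS, 0 of 1229 probes passed (268 unadjusted, 21.8%, lowest adjusted p 0.0904). The forward LS array of replicate 1 had 726 values and an SD of 0.47, the fewest values and widest spread of the series. Its reverse array had 1190 values, and the title text that may mark a batch differs between the pair. Where only the reverse array gave a value, a dye component does not cancel in LS replicate 1. On HS, the median over all 1350 probes was 0.02.

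On HS, 4 genes of sodium and water transport were higher in strain 13. Fxyd4, the corticosteroid-induced regulator of the sodium pump known as CHIF, had log ratios of 0.58, 0.37 and 0.54 in replicates 1, 2 and 3. Scnn1a, the alpha subunit of the epithelial sodium channel, had 0.43, 0.38 and 0.33, and Aqp3, the basolateral water and glycerol channel of the collecting duct, 0.39, 0.39 and 0.28. Atp1b1, the beta subunit of the sodium pump itself, had 0.26, 0.32 and 0.19. Every replicate of these 4 genes lay above 0, and replicate 3 was the lowest for Scnn1a, Aqp3 and Atp1b1. Their means were 0.50 ± 0.11 for Fxyd4 (limma adjusted p = 0.00944), 0.38 ± 0.05 for Scnn1a (adjusted p = 0.0383), 0.35 ± 0.07 for Aqp3 (adjusted p = 0.0122) and 0.25 ± 0.07 for Atp1b1 (adjusted p = 0.0307). All 6 arrays were above 0 for each of them. Orientation still mattered: Aqp3 had 0.69, 0.62 and 0.49 on the forward arrays and 0.09, 0.16 and 0.06 on the reverse arrays, while Fxyd4 had 0.55, 0.21 and 0.55 and 0.60, 0.53 and 0.53.

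**Figure D1:**
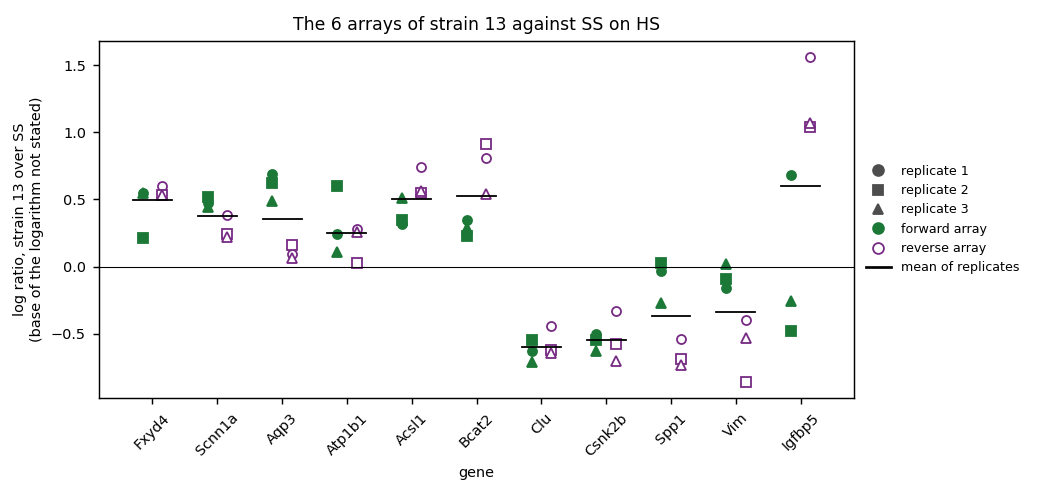
Log ratio of strain 13 over SS on HS (vertical axis, deposited log ratio of unstated base) on each of the 6 arrays for 11 genes that passed the threshold, with filled green symbols for forward arrays, open purple symbols for reverse arrays, a symbol shape for each replicate and a line at the mean. Fxyd4, Clu and Csnk2b had similar values in both orientations, whereas Igfbp5 ran from 0.68, -0.48 and -0.26 on forward arrays to 1.56, 1.04 and 1.07 on reverse arrays.

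Of the 15 measured members of the list of sodium pump, FXYD, channel and cotransporter genes, 4 rose, 0 fell and 11 did not pass, so that 26.7% passed, beside 6.00% of all probes. This list and the other lists of genes by role below were chosen with earlier results of these data known. That choice may raise their shares, which are descriptions and not tests of the lists. Of the 15, 13 lay above 0 (738 of all 1350 probes did), and the median was 0.15, beside 0.02 over all probes. Of the 4 calls, 0 held without replicate 1, 1 without replicate 2 (Fxyd4) and 2 without replicate 3 (Fxyd4 and Aqp3). Among those that did not pass, Hsd11b2, which protects the mineralocorticoid receptor from glucocorticoids, had 0.37, 0.18 and 0.11 (mean 0.22 ± 0.13). Slc12a1, the loop diuretic-sensitive cotransporter of the thick ascending limb, had 0.20, 0.10 and 0.17 and the pump regulator Fxyd2 0.16. Hsd11b2 and Slc12a1 lay above 0 in every replicate, with means below those of the 4 genes that passed. Slc12a2 (0.00), the kinase Sgk1 (-0.01) and the pump subunit Atp1b3 (0.01) had means near 0, and Hsd11b1, which regenerates glucocorticoid, had -0.20 ± 0.14. Of the 6 measured collecting duct markers, 3 are the passing genes Fxyd4, Scnn1a and Aqp3 (50%, beside 6.00% of all probes). The 6 had medians of 0.38, 0.28 and 0.19 in replicates 1, 2 and 3, and 5 of 6 lay above 0. Car2, the carbonic anhydrase of intercalated cells, was the exception at -0.06 ± 0.15. The 4 markers of the thick ascending limb and distal convoluted tubule were all above 0 (median 0.17). Egf, made in the distal convoluted tubule, passed at 0.25, 0.41 and 0.22 (mean 0.29 ± 0.10, adjusted p = 0.0434), and Umod, the uromodulin of the thick ascending limb, had 0.18 ± 0.04 and did not. In bulk tissue, fewer cells of a type and less RNA per cell cannot be told apart, and the part of segment composition in these values was not tested.

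The promoters of Fxyd4 and Aqp3 are shown because these genes had the lowest adjusted p-values of the transport list and lay above 0 on every array. Each run is the 250 bases before the gene start on the gene's strand, from RefSeq build GRCr8, at chr4:152786046-152786295 (minus strand) and chr5:61040684-61040933 (minus strand), and capitals mark a GC box or a TATA box where these letters occur.
Fxyd4: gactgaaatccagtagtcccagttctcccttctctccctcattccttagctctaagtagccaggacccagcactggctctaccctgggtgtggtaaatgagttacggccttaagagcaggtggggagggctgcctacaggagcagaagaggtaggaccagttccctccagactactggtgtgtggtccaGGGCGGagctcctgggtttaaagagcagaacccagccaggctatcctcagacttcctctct
Aqp3: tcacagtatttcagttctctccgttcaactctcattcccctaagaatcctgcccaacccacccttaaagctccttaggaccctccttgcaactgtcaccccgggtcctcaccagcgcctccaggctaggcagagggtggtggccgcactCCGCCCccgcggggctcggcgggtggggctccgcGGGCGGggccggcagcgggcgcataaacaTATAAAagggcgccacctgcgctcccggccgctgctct
The window of Fxyd4 holds 1 GC box, searched as GGGCGG or its reverse complement CCGCCC. That of Aqp3 holds 2 GC boxes and 1 TATA box, searched as TATAAA or TTTATA. Over all 33469 promoters of the table, 30.5% hold the GC box and 12.9% the TATA box, and the letters of these motifs do not overlap in the windows shown. Of the 57 passing genes with a promoter entry, 22 (38.6%) hold a GC box, against 554 of 927 genes tested (59.8%). For the TATA box the counts were 6 of 57 (10.5%) and 83 of 927 (8.95%). These matches are descriptions of letters and not of bound sites. Of the 69 passing genes, 12 were not matched to the table, Atp1b1 and Scnn1a among them.

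Enzymes typical of the proximal tubule were lower in strain 13, by some of the largest amounts on the arrays and unevenly across replicates. Cyp2c23, the arachidonic acid epoxygenase of rat kidney, had -1.85, -0.58 and -1.13 in replicates 1, 2 and 3. Gatm, the amidinotransferase of creatine synthesis, had -1.64, -0.59 and -0.85. Cyp2e1, a cytochrome P450 that oxidises small molecules such as ethanol, had -0.98, -0.23 and -0.81. All values were below 0, with replicate 1 the lowest and replicate 2 the nearest to 0 for each of the 3 genes. The means were -1.19 ± 0.63 (adjusted p = 0.0197), -1.03 ± 0.55 (adjusted p = 0.0236) and -0.67 ± 0.39 (adjusted p = 0.0281). The kynurenine enzymes Kmo, a monooxygenase, and Aadat, an aminotransferase, had -1.27, -0.34 and -0.61 and -1.21, -0.12 and -0.66, and the peroxisomal racemase Amacr -1.05, -0.35 and -0.41. Their means were -0.74 ± 0.48, -0.66 ± 0.55 and -0.60 ± 0.39, with adjusted p-values of 0.0391, 0.0487 and 0.0487. Without replicate 1 the means were nearer to 0, at -0.48 for Kmo, -0.39 for Aadat and -0.38 for Amacr. Kmo rested on 4 arrays, only the reverse one in replicates 1 and 2, so a dye component cancels only in replicate 3. Slc2a2, the facilitative glucose transporter of the proximal tubule, and Dab2, an adaptor of endocytosis there, were lower by smaller amounts (-0.37 ± 0.13 and -0.37 ± 0.08). Orientation differed for both, with means of -0.02 on forward and -0.71 on reverse arrays for Slc2a2, and -0.61 and -0.14 for Dab2.

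The markers of that segment also lay low. Of 12 measured proximal tubule markers, 2 fell (Gatm and Cyp2e1), 0 rose and 10 did not pass, where 2.37% of all probes were lower. A mean below 0 was found for 11 of the 12, and for 606 of all 1350 probes. Their median was -0.78 in replicate 1, -0.03 in replicate 2 and -0.37 in replicate 3. Among them, Lrp2, the endocytic receptor megalin, had -0.80, 0.03 and -0.54, and Anpep, the brush border aminopeptidase, -0.89, -0.15 and -0.52. Kap, the androgen-regulated protein of proximal tubule, had -0.82, -0.04 and -0.42, and Aqp1, which the thin descending limb also expresses, -0.04, 0.12 and 0.09. Replicate 1 was the lowest and replicate 2 the highest in each of these 4 markers, the order seen in the enzymes. The part of these markers' cells in the enzyme values was not tested. On LS, the median of the 12 markers was -0.28 and 10 lay below 0. Cyp2c23 had -0.84, -0.72 and -1.12 on LS, Gatm -0.77, -0.52 and -0.87 and Kmo -0.33, -0.43 and -0.72, so that HS and LS replicates overlapped for each.

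**Figure D2:**
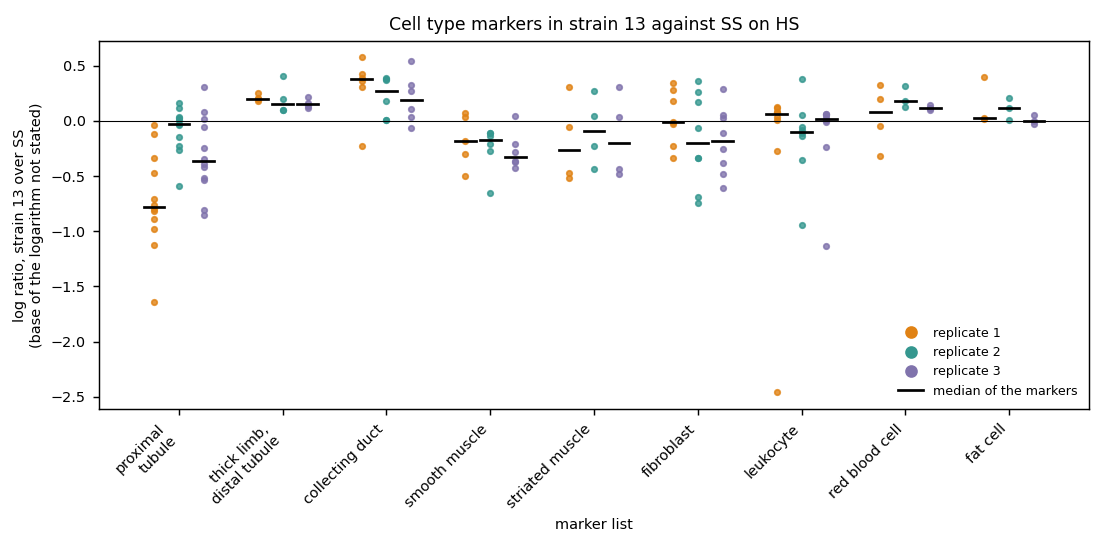
Log ratio of strain 13 over SS on HS (vertical axis, deposited log ratio of unstated base) for the measured markers of each cell type with 3 or more measured markers, with a point for each gene, colours for the 3 replicates and black bars at the median. The proximal tubule markers lie lowest in replicate 1 (median -0.78) and near 0 in replicate 2 (median -0.03), whereas the collecting duct medians are above 0 in all 3 replicates.

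In the list of renal cytochrome P450 and steroid enzymes, 0 of 11 rose, 2 fell (Cyp2c23 and Cyp2e1) and 9 did not pass (18.2% passed, beside 6.00% of all probes), with a median of -0.21 on HS and -0.35 on LS. The amino acid list moved both ways: of 21 measured genes 3 rose, 3 fell and 15 did not pass, or 28.6% against 6.00% of all probes, with a median of -0.10. The 3 that fell are the proximal tubule enzymes Gatm, Kmo and Aadat.

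The 3 amino acid genes that rose include a pair of transaminases. Bcat2, the mitochondrial branched-chain aminotransferase, had 0.58, 0.57 and 0.42 in the 3 replicates, with a mean of 0.52 ± 0.09 and the lowest adjusted p of all probes (0.00261). Got1, the cytosolic aspartate aminotransferase of the malate-aspartate shuttle, had 0.49, 0.34 and 0.33 (mean 0.39 ± 0.09, adjusted p = 0.0177). Amd1, the decarboxylase that supplies polyamine synthesis, had 0.35, 0.64 and 0.39 (mean 0.46 ± 0.16, adjusted p = 0.0422). All replicates of the 3 genes lay above 0. The orientations differed for Got1, with 0.10, 0.03 and 0.16 on forward and 0.88, 0.65 and 0.49 on reverse arrays.

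In fatty acid handling and in lactate and glucagon metabolism, 4 genes were higher. Acsl1, which activates long-chain fatty acids, had 0.53, 0.45 and 0.54, a spread of less than 0.1 between replicates (mean 0.51 ± 0.05, adjusted p = 0.00636). Fabp3, a cytosolic fatty acid carrier, had 0.59, 0.37 and 0.23 (mean 0.40 ± 0.18, adjusted p = 0.0280). Of 28 measured genes of fatty acid activation, oxidation and the peroxisome, 2 rose (Acsl1 and Fabp3), 1 fell (Amacr) and 25 did not pass, or 10.7% against 6.00% of all probes, with a median of 0.01. Cpt1b, a carnitine palmitoyltransferase, was just outside the threshold at 0.47 ± 0.10 (adjusted p = 0.0505). Gcgr, the glucagon receptor, had 0.50, 0.69 and 0.39 (mean 0.52 ± 0.15, adjusted p = 0.0122), and Ldhb, the lactate dehydrogenase subunit of aerobic tissue, 0.40, 0.51 and 0.25 (mean 0.39 ± 0.13, adjusted p = 0.0177). In both, replicate 2 was the highest and replicate 3 the lowest. Of the 20 measured genes of their list 2 rose, 1 fell (Slc2a2) and 17 did not pass (15.0%, beside 6.00% of all probes), with a median of 0.08. None of the 26 genes of the citric acid cycle, respiratory chain and ATP synthase passed in limma, beside 6.00% of all probes. An unadjusted p below 0.05 was found for 5, and 18 of the 26 lay above 0 (median 0.07). The phosphate carrier Slc25a3 came nearest at 0.24 ± 0.08 (adjusted p = 0.0505).

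Several genes of the extracellular matrix and of tissue injury were lower in strain 13. Clu, the secreted chaperone clusterin, had -0.54, -0.59 and -0.68 in replicates 1, 2 and 3, and all 6 arrays lay between -0.71 and -0.44. Spp1, the matrix protein and cytokine osteopontin, had -0.29, -0.33 and -0.50. Mgp, an inhibitor of calcification, had -0.17, -0.61 and -0.52, and Vim, the mesenchymal filament protein vimentin, -0.28, -0.48 and -0.26. Every replicate of the 4 genes was below 0, evenly for Clu and unevenly for Mgp. Their means were -0.60 ± 0.07 for Clu (adjusted p = 0.0240), -0.37 ± 0.11 for Spp1 (adjusted p = 0.0240), -0.43 ± 0.23 for Mgp (adjusted p = 0.0314) and -0.34 ± 0.12 for Vim (adjusted p = 0.0314). Orientation differed for Spp1, with -0.03, 0.03 and -0.27 on forward and -0.54, -0.69 and -0.73 on reverse arrays, and for Vim, with -0.16, -0.09 and 0.02 and -0.40, -0.86 and -0.53. Col2a1, a fibrillar collagen best known from cartilage, had -0.27, -0.72 and -0.27 (mean -0.42 ± 0.26, adjusted p = 0.0328), its value in replicate 2 standing below the others and its mean without that replicate -0.27. Pdgfa, a growth factor for mesenchymal cells, rose instead (0.43, 0.30 and 0.31, mean 0.34 ± 0.07), as did Igfbp5, which binds insulin-like growth factors (1.12, 0.28 and 0.41, mean 0.60 ± 0.45, adjusted p = 0.0487). For Igfbp5 the mean of the forward arrays alone was -0.02 and that of the reverse arrays alone 1.22, and without replicate 1 its mean was 0.34. In total, 2 of the 37 measured matrix genes rose, 5 fell and 30 did not pass, or 18.9% against 6.00% of all probes, with a median of -0.07. None of the 37 passed in limma when replicate 1, 2 or 3 was left out or with arrays at equal spread. Col3a1, a fibrillar collagen of interstitial tissue, lay just outside the threshold at -0.23, -0.69 and -0.38 (mean -0.43 ± 0.24, adjusted p = 0.0505).

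Markers of mesenchymal cells stood beside these values. The 6 measured smooth muscle markers were all below 0 on HS (median -0.26) and none passed in limma, with 2 at an unadjusted p below 0.05. Tagln, the actin-binding protein transgelin, was the lowest at -0.18, -0.65 and -0.43, and Acta2, smooth muscle actin, had 0.04, -0.11 and 0.05. On LS the 4 of them with a value had a median of 0.05. Of 8 fibroblast markers 0 passed in limma (2 unadjusted) and 5 were below 0, with a median of -0.08. Of all probes, 6.00% passed. The part of these cells in the matrix values was not tested.

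Among immune and complement genes, 3 of 26 fell (11.5%, where 2.37% of all probes were lower), 0 rose and 23 did not pass, with a median of -0.03. Lyz2, the lysozyme of myeloid cells, had the lowest mean of all probes that passed, at -2.46, -0.95 and -1.14 (mean -1.51 ± 0.83, adjusted p = 0.0321). Replicate 1 was by far the lowest and rested on its reverse array alone, so that a dye component does not cancel there. Complement component C3 had -0.35, -0.45 and -0.31 (mean -0.37 ± 0.07, adjusted p = 0.0288). Apcs, the pentraxin serum amyloid P component, had -0.46 in replicates 2 and 3 (n = 2), each from 1 array and of opposite orientation. Of 8 leukocyte markers only Lyz2 passed (12.5%, beside 6.00% of all probes), and the median of the 8 was -0.02. Outside the list, the lysosomal protease Ctsl and the sulfurtransferase Tst were lower at -0.39 ± 0.09 and -0.45 ± 0.10.

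Genes of vascular and hormonal signalling differed in both directions. Pcsk6, a proprotein convertase that activates precursors including corin, had 0.46, 0.32 and 0.55 (mean 0.44 ± 0.11, adjusted p = 0.00889). Kdr, the VEGF receptor of endothelium, had 0.45, 0.21 and 0.30 (mean 0.32 ± 0.12, adjusted p = 0.0241). Galr2, a galanin receptor, was lower at -0.61, -0.30 and -0.54 (mean -0.48 ± 0.16, adjusted p = 0.0464). None of these replicates crossed 0, and replicate 2 was nearest to 0 in each. With Egf, 3 of 17 vasoactive and blood pressure genes rose, 1 fell and 13 did not pass, or 23.5% against 6.00% of all probes (median 0.06). As for the other lists, these genes were chosen with earlier results of these data known. A related convertase, Furin, also passed as higher at 0.33 ± 0.14. Of 34 kinase, phosphatase and small G protein genes 1 rose (Ralb), 2 fell and 31 did not pass (median 0.02), and these 8.82% are near the 6.00% of all probes. Csnk2b, the regulatory subunit of casein kinase 2, had -0.42, -0.57 and -0.67 and all 6 arrays below 0 (mean -0.55 ± 0.13, adjusted p = 0.0307). Prkcb, a protein kinase C isoform, had -0.47, -0.25 and -0.55 (mean -0.42 ± 0.16, adjusted p = 0.0383). The calcium release channel Itpr2 had -0.53 and -0.63 in replicates 1 and 3 (n = 2), each from a single array.

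Further genes with large differences fell in none of these lists. Dnase1, the endonuclease secreted by kidney, had 1.02, 0.53 and 0.59 (mean 0.71 ± 0.27, adjusted p = 0.0122). Nupr1, a stress-induced nuclear protein, had 0.81, 0.46 and 0.44, and Hes1, the Notch target and repressor, 0.69, 0.78 and 0.11, with replicate 3 well below the others. Their means were 0.57 ± 0.21 and 0.52 ± 0.36. Sult1a1, a phenol sulfotransferase, had 0.46, 0.88 and 0.39 and just passed at an adjusted p of 0.0490. Cnr1, the cannabinoid receptor, had 0.51, 0.83 and 0.34. In both of these replicate 2 was the highest. Also higher were Plcb4, a phospholipase C (0.49 ± 0.25), Ppp1r9a, a phosphatase-targeting protein (0.48 ± 0.23), Gprc5b, an orphan receptor (0.48 ± 0.11), and Igf1, insulin-like growth factor (0.38 ± 0.21). P4ha1, a prolyl hydroxylase of collagen, had 0.37 ± 0.16, and the stress-induced transcription factor Ddit3 0.36 ± 0.12. Aldh1a1, a retinaldehyde dehydrogenase, had 0.24 ± 0.02. It was the 1 of 34 redox and detoxification genes that passed (2.94%, beside 6.00% of all probes, list median -0.14). Among lower genes, Stmn1, which destabilises microtubules, had -0.39 ± 0.20, Tsc22d1, a transcriptional regulator, -0.35 ± 0.05, and Azin1, the antizyme inhibitor, -0.29 ± 0.08. Apex1, a base excision repair endonuclease, had -0.29 ± 0.08. Rpsa was the only 1 of 27 cytosolic ribosomal protein genes that passed (3.7%, beside 6.00% of all probes), at -0.22 ± 0.03, and the list median was near 0. Smaller differences that passed were those of Eif2b4 (0.35), Taf9b (0.34), Mcrip1 (0.33), Cntnap1 (0.33), Ces2c (0.31), Plpp1 (0.28) and Ptp4a2 (0.24). On forward arrays alone, Mcrip1 had -0.083, Ptp4a2 -0.027 and Cntnap1 0.

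**Figure D3:**
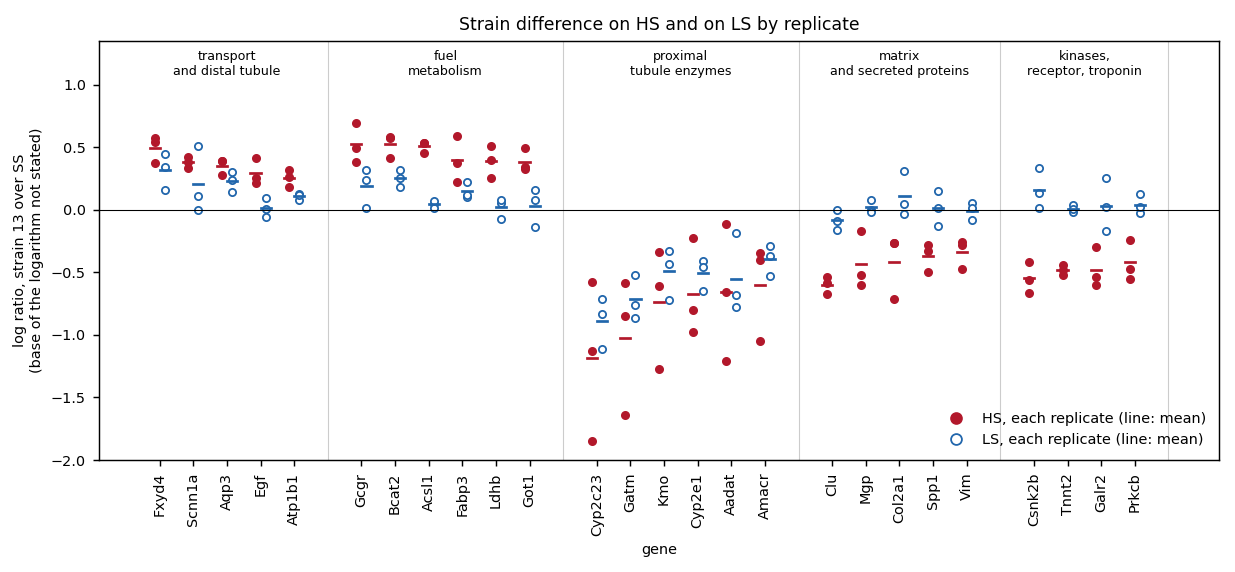
Log ratio of strain 13 over SS (vertical axis, deposited log ratio of unstated base) for 26 genes that passed on HS, in filled red circles for each HS replicate and open blue circles for each LS replicate, with lines at the means. The LS means of Fxyd4, Scnn1a, Aqp3, Atp1b1 and the 6 proximal tubule enzymes lie on the same side of 0 as on HS, whereas the LS values of Mgp, Spp1, Vim and Tnnt2 lie on both sides of 0 and those of Csnk2b above 0.

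Chromosome 13 is the segment that differs by design. Of the 32 genes tested there, 8 passed (25.0%), 5 higher and 3 lower, against 60 of 1106 probes (5.42%) of genes on other chromosomes. The passing genes went both ways, and the median over the 32 genes was -0.03. Ctse, the aspartic protease cathepsin E, was the highest, with 0.94 and 0.90 in replicates 2 and 3 (n = 2). Its arrays of replicate 2 disagreed, at 0.29 forward and 1.58 reverse. Mtarc2, a mitochondrial amidoxime reductase, had 0.38, 0.54 and 0.24, Tor1aip1, an inner nuclear membrane protein, 0.33, 0.36 and 0.40, and Ralb, a small GTPase, 0.30, 0.23 and 0.37. The averaged replicates of Tor1aip1 lay within 0.1 of each other, while its arrays had -0.05, 0.29 and 0.27 forward and 0.70, 0.42 and 0.53 reverse. The pump subunit Atp1b1, described above, is the remaining higher gene. Tnnt2, the cardiac type of troponin T, had -0.52, -0.44 and -0.49 (mean -0.48 ± 0.04, adjusted p = 0.0177), with -0.60, -0.70 and -0.50 on forward and -0.44, -0.18 and -0.47 on reverse arrays, and Kmo and Apcs were the others that were lower. The cardiac actin gene Actc1, on another chromosome, was higher (0.30 ± 0.02), so the 2 striated muscle markers that passed went opposite ways. The small SD of Actc1 is that of averaged replicates. Its arrays had 0.11, -0.05 and 0.17 forward and 0.51, 0.60 and 0.45 reverse. The count on chromosome 13 was 0 without replicate 1, 0 without replicate 2, 1 without replicate 3, 4 with the replicate number as a block, 1 with equal spread, 2 with the 6 strain pairs and 0 with the 3 HS pairs alone.

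**Figure D4:**
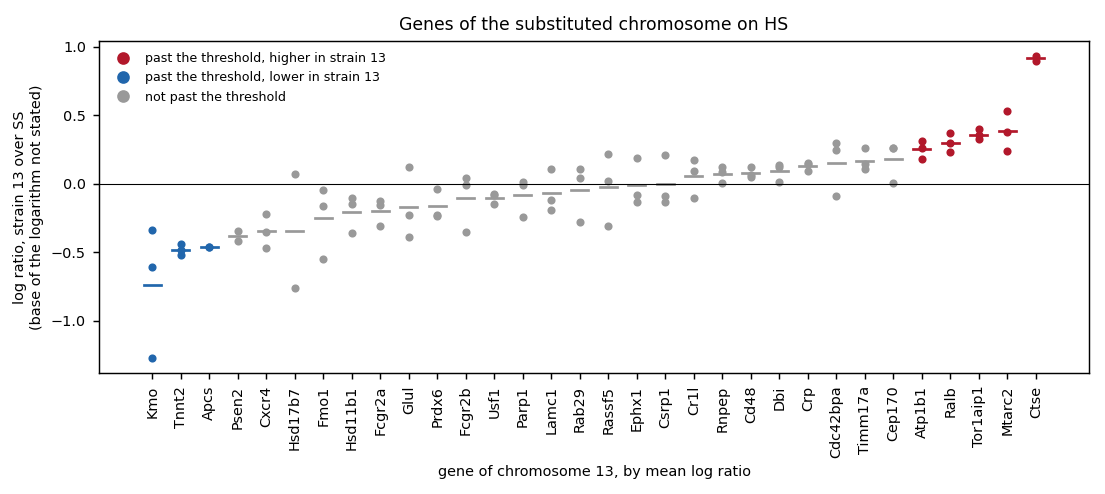
Log ratio of strain 13 over SS on HS (vertical axis, deposited log ratio of unstated base) for the 32 tested genes of chromosome 13 in order of their mean, with a point for each replicate and a line at the mean. The 5 higher genes (red) and 3 lower genes (blue) that passed lie at both ends, and the 24 others (grey) lie between.

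The promoters of Tor1aip1 and Tnnt2 are shown as a higher and a lower gene of the substituted chromosome whose averaged replicates lay closest together among those with 3 replicates. The reference they come from, RefSeq build GRCr8, is a BN rat, the strain that gave strain 13 its chromosome, and the SS sequence was not used here. The runs are the 250 bases before the gene start at chr13:70776124-70776373 (minus strand) and chr13:49818873-49819122 (plus strand), with a steroid receptor half-site in capitals.
Tor1aip1: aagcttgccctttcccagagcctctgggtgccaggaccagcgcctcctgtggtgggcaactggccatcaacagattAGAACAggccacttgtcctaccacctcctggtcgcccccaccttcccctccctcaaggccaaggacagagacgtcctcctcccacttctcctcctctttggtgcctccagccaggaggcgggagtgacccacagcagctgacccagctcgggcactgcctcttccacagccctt
Tnnt2: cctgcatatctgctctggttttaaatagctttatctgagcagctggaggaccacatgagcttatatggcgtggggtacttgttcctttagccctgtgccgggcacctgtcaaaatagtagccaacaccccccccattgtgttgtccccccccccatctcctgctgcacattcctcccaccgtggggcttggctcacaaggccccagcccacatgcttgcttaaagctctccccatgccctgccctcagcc
The window of Tor1aip1 holds 1 steroid receptor half-site, searched as TGTTCT or AGAACA, and that of Tnnt2 holds none of the 3 motifs. The half-site occurs in 17.5% of all promoters of the table, in 106 of the 927 genes tested (11.4%) and in 8 of the 57 passing genes.

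The same strain comparison on LS gives the values of these probes without high salt. Values of LS replicate 1 carry the limit of its forward array given above. Of the 79 passing probes with an LS value, 62 had the same sign there, 42 of 48 higher and 20 of 31 lower. Over all 1203 probes tested on both diets, 817 (67.9%) had the same sign on both, 469 of 656 above 0 on HS (71.5%) and 348 of 541 below 0 (64.3%). The share of 20 of 31 is therefore near that of all probes below 0. The median of those higher on HS was 0.38 on HS and 0.15 on LS, and that of those lower on HS was -0.45 and -0.14. Because the probes were chosen by their HS values, smaller LS values are not by themselves a difference between diets. The test of that difference, HS minus LS, passed for 0 of 1203 probes in limma (110, or 9.14%, had an unadjusted p below 0.05, and the lowest adjusted p was 0.278), and for 10 and 7 probes when the 24 arrays were fitted singly, without and with a dye term. HS and LS replicates did not overlap for 44 of the 79 probes, against 219 of all 1203 (18.2%). The 44 are among the 219, and choosing probes by their HS values raises this share too. It is therefore no test of a difference between diets.

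The 4 transport genes had LS means above 0. On LS, Fxyd4 had 0.16, 0.34 and 0.45 and Aqp3 0.14, 0.24 and 0.30, which overlap the HS replicates, while Atp1b1 had 0.13, 0.08 and 0.12, below all 3 HS replicates. Scnn1a had 0.51, 0.11 and 0.00 on LS, with 1 replicate above and the others below its HS values. The difference HS minus LS was 0.18 ± 0.11 (SE) for Fxyd4, 0.13 ± 0.08 for Aqp3, 0.17 ± 0.13 for Scnn1a and 0.15 ± 0.08 for Atp1b1, with adjusted p-values of 0.627, 0.654, 0.705 and 0.614. Metabolic genes were split. Acsl1 had 0.05, 0.02 and 0.07 on LS, a difference of 0.46 ± 0.10 (unadjusted p = 0.000462, adjusted p = 0.278), and Got1 -0.14, 0.16 and 0.08 and Ldhb -0.08, 0.06 and 0.08, all below their HS replicates. Bcat2 had 0.26, 0.32 and 0.19 on LS, above 0 but below its HS replicates. In replicate 3, both diets share part of the title text that may mark a batch, though the reverse HS array differs in another part. There Acsl1 had 0.54 on HS and 0.07 on LS, and Got1 0.33 and 0.08.

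Several genes lower in strain 13 on HS had LS values around 0. Clu had -0.09, -0.17 and 0.00 on LS, Mgp 0.08, 0.00 and -0.02, Spp1 0.02, -0.13 and 0.15 and Vim 0.05, 0.01 and -0.08, and none of these overlapped the HS replicates. Tnnt2 had 0.04, -0.02 and 0.01 on LS, also apart from HS, and Csnk2b 0.34, 0.02 and 0.13, all above 0. The matrix genes that rose on HS were not around 0 on LS, with 0.20, 0.36 and 0.67 for Igfbp5 and 0.24, 0.21 and 0.01 for Pdgfa. The differences HS minus LS were -0.51 ± 0.18 for Clu, -0.49 ± 0.12 for Tnnt2 and -0.71 ± 0.18 for Csnk2b (SE, adjusted p = 0.443, 0.325 and 0.325). In replicate 3 alone the pairs of HS and LS values were -0.68 and 0.00 for Clu, -0.49 and 0.01 for Tnnt2 and -0.67 and 0.13 for Csnk2b. In replicates 1 and 2 the title text differs between the diets. Part of it also differs on the reverse HS array of replicate 3. Diet and such a batch cannot be told apart in replicates 1 and 2. In replicate 3 the forward arrays of both diets share both parts of that text, and this replicate was not tested alone.

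**Figure D5:**
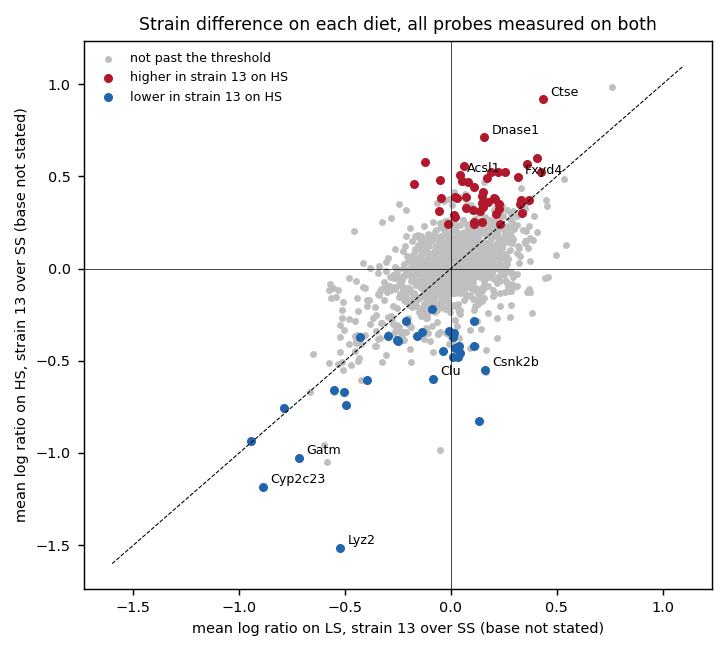
Mean log ratio of strain 13 over SS on HS (vertical axis) against that on LS (horizontal axis), both deposited log ratios of unstated base, for the 1203 probes measured on both diets, with passing probes in red (higher) and blue (lower) and a dashed line of equal values. Gatm (-0.72) and Cyp2c23 (-0.89) lie below 0 on LS too, Acsl1 (0.04) and Clu (-0.09) lie near 0 on LS, and Csnk2b lies above 0 there (0.16).

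The diet arrays give the same genes on another axis. They share the HS RNA of each strain with the strain arrays as a condition. In replicate 3 the channel names repeat the same name for SS RNA on HS, which does not state that the extract was the same. With the negative correlations given above, strongest in replicates 1 and 2, sharing is possible in every replicate. The values are therefore set side by side only. The direction of the diet values is taken as HS over LS and is not certain, as most diet titles name no dyes. In that direction, Clu had 0.71 in SS and 0.09 in strain 13, Csnk2b 0.72 and 0.07, Mgp 0.61 and 0.13, and Tnnt2 0.57 and 0.14. Among genes higher in strain 13, Acsl1 had -0.39 and 0.04, Got1 -0.33 and 0.01, Dnase1 -0.52 and 0.05, and Pcsk6 -0.31 and 0.12. These genes were picked from those that passed on HS. Other passing genes had the larger value in strain 13, among them Pdgfa (-0.10 and 0.24), Ces2c (-0.08 and 0.21), Nupr1 (-0.21 and 0.28) and Ctse (0.16 and 0.48). Of the transport genes, Fxyd4 had -0.03 and 0.09, Aqp3 -0.12 and 0.15, Atp1b1 0.01 and 0.01, and Scnn1a -0.20 and -0.17, the last below 0 in every replicate of both strains. Proximal tubule enzymes had means below 0 in both strains, with -0.46 and -0.72 for Cyp2c23, -0.24 and -0.56 for Gatm and -0.53 and -0.72 for Amacr. The replicates of SS did not all go that way: replicate 1 had 0.1 for Cyp2c23 and 0.3 for Gatm. For Amacr, replicate 1 of SS was below 0 but near it, at -0.055.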

How the data were processed

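Rat kidney RNA was hybridised on 24 two-colour cDNA arrays, per the labels, and the authors deposited 1 log ratio per probe and array with 2 decimals. The log base, the background correction and the normalization of these values are not stated by any source used here. The deposited values are therefore described as log ratios of an unstated base. Probes were named from GEO's platform annotation and updated through RefSeq: of 1350 tested, 1138 had an updated symbol, 4 a platform symbol only, 19 several and 189 none. Forward and reverse arrays were averaged, and limma 3.58.1 in R 4.3.3 (lmFit, eBayes) fitted 4 group means to the 12 RNA pairs. Each mean was tested against 0, two-sided, with Benjamini-Hochberg adjustment over the probes with at least 2 replicates and a threshold of 0.05. An exact sign-flip test over 3 values cannot go below 0.25. HS and LS strain means were compared in the same fit. Groups came from titles; 5 SS diet titles give no strain, and 1 was placed by its channel text. A strain 13 diet title without a number was taken as replicate 1. The genes and lists were chosen with earlier results of these data known. Named were all genes that passed with 1 symbol, members of the lists and markers with at least 2 replicates, and the 3 genes nearest each side of the threshold. Alternatives covered the samples fitted, left-out replicates, the replicate block, array scaling, missing values, single orientations, single arrays and the threshold. Motifs were searched in the 250 bases before each RefSeq gene start.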

Additional observations from a re-analysis of the deposited data

Results flagged for a closer look

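Csnk2b, the regulatory subunit of casein kinase 2, was picked out because all HS replicates of the strain difference lay below 0 (-0.42, -0.57 and -0.67) and all LS replicates above 0 (0.34, 0.02 and 0.13). The HS minus LS difference was -0.71 ± 0.18 (SE), which did not pass adjustment in limma (adjusted p = 0.325, unadjusted p = 0.00181). Csnk2b was not alone in this. Slc16a7, which did not pass on HS, had 0.26, 0.39 and 0.40 on HS and -0.42, -0.30 and -0.03 on LS. Its difference was 0.60 ± 0.14 (SE, limma unadjusted p = 0.00122). The share of all probes with replicates on opposite sides of 0 is not given here. In 3 array measures examined, no array of the 6 stood apart from the others.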

How the results depend on the processing

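Of the results tested again, the number of probes that differed between strains on HS, 81 as reported, moved most. It was 0 with the 3 HS pairs fitted alone, 15 with the 6 strain pairs, 13 with equal spread of the arrays, 127 on forward arrays alone, 411 on reverse arrays alone and 136 at an adjusted p of 0.1. Leaving out each replicate gave 0 to 19. With the replicate number as a block, 44 passed (32 higher, 12 lower), of which 43 were among the 81. Deviations of same-numbered HS and LS strain samples correlated at 0.06, 0.40 and -0.01, and those of HS strain and SS diet samples at -0.63, -0.56 and -0.29, so same-numbered samples did not deviate together in one direction. A block gives each number 1 effect and does not describe deviations of opposite sign, and whether extracts are shared was not tested. Fitting the 24 arrays with the RNA pair as a random block gave 187 (consensus correlation -0.26), and adding a dye term, an alternative chosen after seeing the data, also 187 (correlation -0.02). On single orientations a dye component does not cancel. The HS minus LS count, 0 as reported, was 10 and 7 in these last 2 fits and 0 in the others. The count on HS stayed within 1.5 times of 81 with median centring (73), robust eBayes (87), probes on all 6 arrays (97), all 3 replicates (96), without the diet array of conflicting title (73) and without the LS array of fewest values (71, also chosen after seeing the data). Of the 81 probes, 33 were among those passing on forward arrays alone and 65 on reverse arrays alone. Of the named genes that passed, 3 changed sign, on forward arrays alone: Mcrip1 (-0.083), Ptp4a2 (-0.027) and Igfbp5 (-0.02). Others kept their sign or reached 0 with small forward means, among them Cntnap1 (0 forward, 0.65 reverse), Furin (0.01 and 0.64) and Slc2a2 (-0.02 and -0.71). Ctsl had -0.03 and -0.74, Stmn1 -0.03 and -0.75, and Col2a1 -0.10 and -0.74.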

Other observations

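Of the 81 probes that passed on HS, 12 have no single gene symbol in the tables used here, 8 of them higher in strain 13 and 4 lower. They are unnamed here and were left out of the gene groups.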
